A study of Rattus norvegicus with 24 samples.

Results

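Transcript levels in the extraocular muscles (EOM) of rats (Rattus norvegicus) aged 6 months were set against those in the extensor digitorum longus (EDL) of rats of that age, the youngest of 3 ages in the series. The arrays were chosen by their titles, which give 4 EOM and 4 EDL replicates at 6 months, 8 of the 24 arrays. All 8740 probe sets that are not array controls were taken, of 8799 in all, and 5741 of them, from 3419 named genes, were bright enough to test. Each array measured RNA pooled from 4 animals, and the design text calls the replicates independent. The p-values therefore measure the spread between pools, not between animals. The labels name no treatment or genotype for either muscle, and strain and sex are not given in the sources used here. Nor do they say whether both muscles of a pool were taken from shared animals.

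The EOM are the small muscles that turn the eye. They contract fast, resist fatigue, and hold both singly and multiply innervated fibres, and as adults they keep myosins that limb muscles use mainly before and around birth. The EDL, which lifts the toes of the hind foot, consists mostly of fast fibres that work largely by glycolysis. Muscle speed and endurance depend on which isoforms of the contractile proteins, calcium pumps and metabolic enzymes a fibre makes, and each isoform comes from a gene of its own or from splicing.

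Signals are linear values in arbitrary units, scaled by the authors, and differences are EOM minus EDL on the log2 scale with the standard error (SE) of the limma fit. Values below an array's 25th percentile, the floor (21.5 to 34.5 units on these 8 arrays), were raised to it before the fit, so a difference that rests on floored arrays is too small. Signals of different probe sets are not compared with each other. The median signal was 104.5 to 136.8 units on the EOM arrays and 94.1 to 135.6 units on the EDL arrays. The ratio of beta-actin signal at the 3' end over the 5' end, a measure of RNA decay, was 1.41 ± 0.0623 in EOM and 2.19 ± 1.07 in EDL (SD, n = 4 each; exact two-sided permutation test p = 0.314, adjusted over 3 array measures 0.471). EDL replicates 1 and 2 had 2.54 and 3.54. The same ratio for Gapdh was 1.2 ± 0.185 in EOM and 1.29 ± 0.299 in EDL (exact permutation p = 0.686). The median Spearman correlation of an array with the others of its group averaged 0.958 ± 0.0073 in EOM and 0.929 ± 0.0104 in EDL (exact permutation p = 0.0286, the smallest that 4 against 4 arrays can give, adjusted 0.0857). The EOM carried the transcript that defines them: Myh13, the extraocular myosin, read at least 10666.8 units on the EOM arrays and at most 106.3 units on the EDL arrays, while the lowest readings of Acta1 and Ckm, which mark skeletal muscle and not the EDL as such, over all 8 arrays were 18868.7 and 20059.6 units.

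Of the 5741 probe sets tested, 1029 (17.9%) passed limma at an adjusted p under 0.05, 668 (11.6%) higher in EOM and 361 (6.29%) lower. By gene, each represented by its brightest probe set, 642 of 3419 (18.8%) were called, 421 (12.3%) higher and 221 (6.46%) lower. A stricter rule modelled on that of the design text, a ratio of means over 2 with all 16 pairwise comparisons in 1 direction, took 565 probe sets (9.84%). The difference calls of the design text need probe-level data and were not made, and its detection calls were not used. With the replicate number as a block the probe set counts were 837 higher and 609 lower over all 24 arrays, and 670 and 348 over the 8 arrays alone. The block named below is that over 24 arrays unless the 8 are mentioned. The median difference of all probe sets was -0.041 and of all genes -0.024, which the authors' scaling of each array to one level largely fixes. The spread was uneven, with the 5th percentile at -0.906 and the 95th at 1.482. Among called probe sets 65 were at least 8-fold higher in EOM and 2 at least 8-fold lower. The 4 EOM and 4 EDL values did not overlap for 1154 probe sets (20.1% of those tested) and for 821 of the 1029 called. In RNA of whole muscle, fewer cells of a type and less RNA per cell cannot be told apart, and this holds for every difference below.

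**Figure D1:**
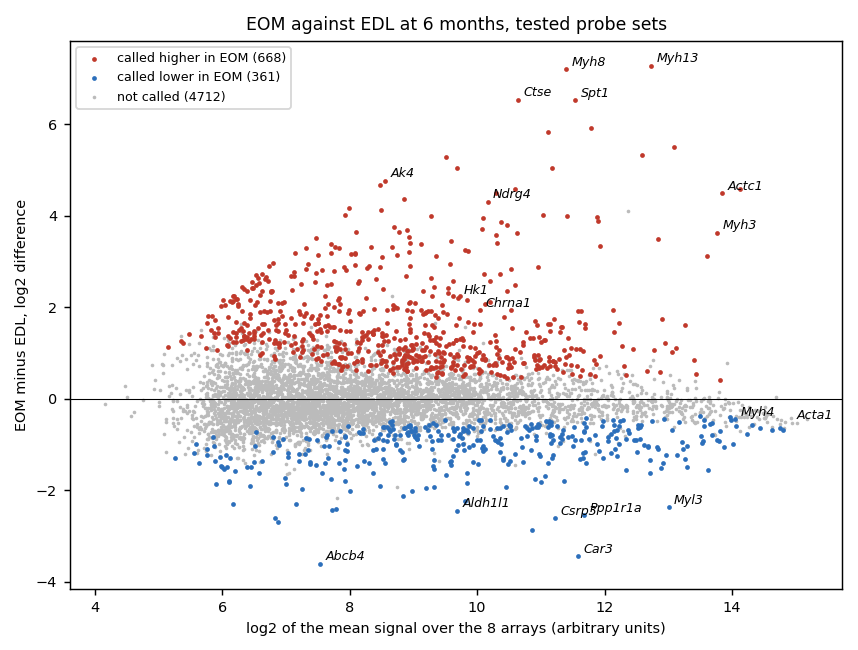
Difference between EOM and EDL at 6 months (log2, vertical) against the log2 of the mean signal over the 8 arrays (arbitrary units, horizontal), 1 point per tested probe set, with 668 called higher in EOM in red, 361 called lower in blue and the others in grey. The rises reach 7.28 (Myh13), while the deepest fall is -3.61 (Abcb4).

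Related genes of the sarcomere and the endplate are set side by side below, and the 250 bases before the RefSeq start of 3 such pairs are shown (RefSeq, GRCr8, 5′ to 3′). Of the 3419 tested genes 2818 had an entry in that table by symbol. Capitals mark TATAAA on either strand in the myosins, the CArG box in the actins and CANNTG, the E-box bound by myogenic factors, in the acetylcholine receptor subunits. Myh3, the embryonic myosin, was higher in EOM and Myh4, the fast 2B myosin, lower, and both lie on chromosome 10 in a row of myosin genes that runs Myh3, Myh2, Myh1, Myh4, Myh8, Myh13.
Myh3, chr10:52268935-52269184, plus strand: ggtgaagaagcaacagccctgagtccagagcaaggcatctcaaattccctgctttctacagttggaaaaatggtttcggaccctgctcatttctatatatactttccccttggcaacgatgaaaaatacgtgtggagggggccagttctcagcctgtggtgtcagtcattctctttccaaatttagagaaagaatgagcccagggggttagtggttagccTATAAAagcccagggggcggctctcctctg
Myh4, chr10:52421898-52422147, plus strand: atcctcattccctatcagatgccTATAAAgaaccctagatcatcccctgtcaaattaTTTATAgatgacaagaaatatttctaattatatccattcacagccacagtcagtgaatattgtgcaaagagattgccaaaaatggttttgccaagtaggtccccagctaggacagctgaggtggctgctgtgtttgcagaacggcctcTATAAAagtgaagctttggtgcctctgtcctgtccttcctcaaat
Actc1, chr3:121271828-121272077, minus strand: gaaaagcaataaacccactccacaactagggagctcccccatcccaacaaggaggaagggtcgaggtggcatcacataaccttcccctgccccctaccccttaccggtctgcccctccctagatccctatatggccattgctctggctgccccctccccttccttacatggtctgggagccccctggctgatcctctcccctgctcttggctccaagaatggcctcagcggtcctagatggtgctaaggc
Acta1, chr19:68784195-68784444, minus strand: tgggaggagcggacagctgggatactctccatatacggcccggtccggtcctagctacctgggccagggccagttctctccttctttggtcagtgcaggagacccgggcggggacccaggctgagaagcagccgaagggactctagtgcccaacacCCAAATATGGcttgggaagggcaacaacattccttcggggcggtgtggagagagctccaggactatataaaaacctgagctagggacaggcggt
Chrna1, chr3:78877354-78877603, minus strand: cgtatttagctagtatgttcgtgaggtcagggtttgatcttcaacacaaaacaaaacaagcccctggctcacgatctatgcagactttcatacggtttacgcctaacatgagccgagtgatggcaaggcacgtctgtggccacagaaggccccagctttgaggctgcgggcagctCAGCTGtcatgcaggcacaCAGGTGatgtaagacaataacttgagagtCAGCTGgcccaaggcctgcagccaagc
Chrnd, chr9:95310066-95310315, plus strand: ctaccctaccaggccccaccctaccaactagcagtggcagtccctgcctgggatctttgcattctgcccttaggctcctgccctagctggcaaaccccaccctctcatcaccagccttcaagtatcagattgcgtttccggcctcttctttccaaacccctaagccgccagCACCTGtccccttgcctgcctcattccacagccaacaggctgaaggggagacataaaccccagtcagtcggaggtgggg
TATAAA begins 30 bases before the start in Myh3 and 227, 193 and 45 bases before it in Myh4, where the hit at 193 is on the minus strand and lies inside a match to the MEF2 motif. In the windows not shown, TATAAA occurred 0 times for Myh13, 0 for Myh8, 2 for Myh1 and 1 for Myh2, so it does not follow the direction of the difference. Of 33469 promoter windows of the same length, 12.9% held TATAAA on either strand. The CArG box occurred in the Acta1 window and not in that of Actc1, against 1.5% of all windows. CANNTG, which reads the same on both strands, occurred 3 times in the Chrna1 window and 1 time in that of Chrnd, and in 65.5% of all windows, so its presence singles out neither gene. These are matches of letters and not binding sites.

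Myosins of eye muscle and of development gave the 2 largest rises in EOM. Myh13 (Entrez gene 29605) read 15738.5, 10666.8, 12729.2 and 14829.5 units on the EOM arrays, against 98.7, 71.1, 73.7 and 106.3 on the EDL arrays. No array of either muscle came near the range of the other, and the difference was 155-fold (log2 7.28, SE 0.35, adjusted p = 1.99e-13). The perinatal form Myh8 (252942) read 5009.9, 5933.8, 5606.5 and 4874.1 in EOM, against 38.3, 50.5, 17.8 and 24.2 in EDL, where 2 arrays were at the floor. Its difference was log2 7.20 (SE 0.25, adjusted p = 2.23e-16), the smallest p of the named genes. Myh3 (24583) read 25096.7, 25886.0, 18220.4 and 33894.6 in EOM, against 1439.8, 3287.1, 2662.5 and 1371.7 in EDL. On this probe set the EDL level was 12.3-fold below that of EOM (log2 3.63, SE 0.27, adjusted p = 4.12e-10). Of the 4 other Myh3 probe sets 3 were called in the same direction, at log2 5.92, 5.04 and 5.49, and 1 was not called (0.53). Whether any of these probe sets also read related myosins was not tested.

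Developmental and extraocular isoforms made up 15 tested genes, of which 5 (33.3%) were higher in EOM and 2 (13.3%) lower, with a median of 0.489, against 12.3% and 6.46% of all genes and a median of -0.024. The other higher genes were Dlk1, a Notch-family ligand of development, and Actg1, cytoplasmic gamma-actin. Dlk1 (log2 0.79, adjusted p = 0.0422) was no longer called without EOM replicate 1, 2, 3 or 4 or EDL replicate 1, 2 or 4 (adjusted p = 0.0649 to 0.141). The higher count was 3 without EOM replicate 2, 3 or 4, without EDL replicate 2 or after centring arrays on their medians, and 3 with 1 lower when EDL was reduced to replicates 3 and 4. The lower genes were H19, an imprinted non-coding RNA (9629 ± 1082 units in EOM and 18900 ± 5626 in EDL, log2 -0.93, SE 0.19, adjusted p = 0.00109), and Des, the intermediate filament desmin (log2 -0.90, SE 0.21, adjusted p = 0.00361). Igf2, the fetal growth factor next to H19, averaged 1082 ± 134 units in EOM and 1030 ± 140 in EDL and did not pass (log2 0.07, SE 0.26, adjusted p = 0.891). Chrng, the fetal acetylcholine receptor subunit, read 430.4, 298.5, 471.4 and 503.7 in EOM, against 258.3, 322.6, 538.2 and 498.3 in EDL. Its arrays overlapped and it did not pass (log2 0.11, SE 0.26, adjusted p = 0.831).

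The actin of the heart was high in eye muscle. Actc1 (29275) read 28813.3, 30693.8, 20093.0 and 30794.1 units in EOM, against 782.0, 2026.7, 3709.8 and 369.9 in EDL (log2 4.49, SE 0.45, adjusted p = 6.6e-08). The EOM arrays lay close together, while the EDL arrays ranged over an order of magnitude. Acta1, the skeletal alpha-actin, read 26489.1, 24588.9, 18868.7 and 31920.8 in EOM, against 41198.9, 32086.9, 26927.5 and 48742.6 in EDL. These overlap, and the difference did not pass (log2 -0.54, SE 0.21, adjusted p = 0.0877). It passed with the replicate block over 24 arrays (adjusted p = 0.000646) or over 8 (0.013), without EDL replicate 3 (0.0322) and with EDL replicates 1 and 4 (0.0195).

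**Figure D2:**
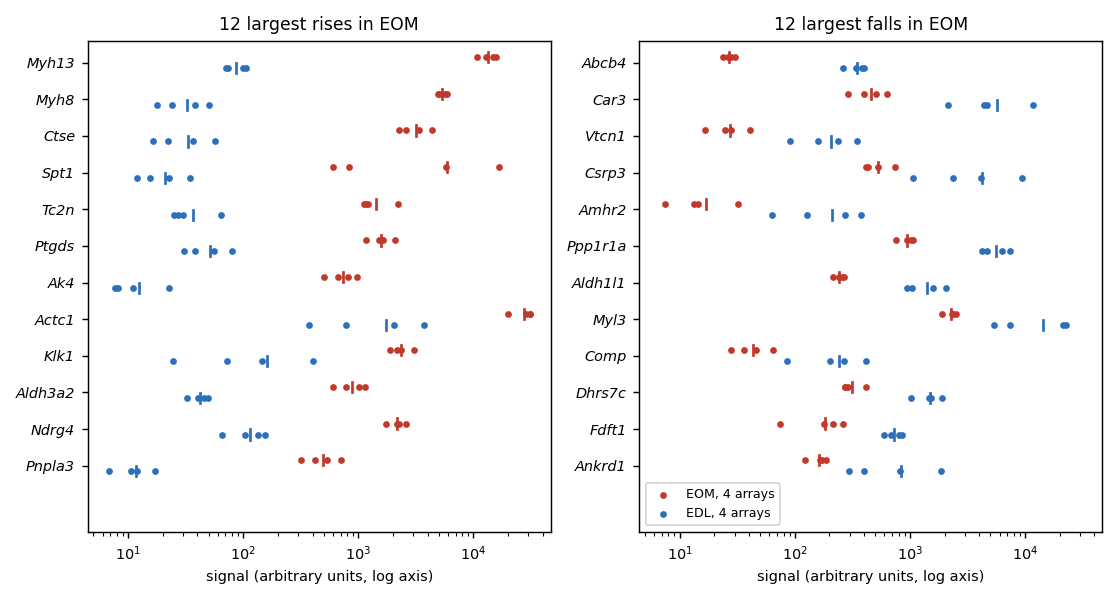
Signal on each of the 8 arrays (arbitrary units, log axis) for the 12 genes with the largest rises and the 12 with the largest falls in EOM, with EOM in red above EDL in blue and a bar at each group's mean. No EOM point overlaps the EDL points of its gene, and Spt1 spreads most, between 603.0 and 16578.7 in EOM.

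Most genes of the fast sarcomere were lower in EOM. Of 17 tested, 13 (76.5%) were lower and 0 higher, with a median of -0.683, against 6.46% and 12.3% of all genes. Mybpc2, the fast myosin-binding protein C, averaged 6313 ± 1032 units in EOM and 19010 ± 4395 in EDL (log2 -1.57, SE 0.18, adjusted p = 6.38e-07), and Mylk2, which phosphorylates the myosin regulatory light chain, fell as well (log2 -1.40, SE 0.20, adjusted p = 9.09e-06). The falls of the most abundant fast proteins were smaller, at log2 -0.68 for the troponin C gene Tnnc2, -0.64 for Tnnt3 and -0.59 for Tnni2. Acta1, Tpm1, Ttn and Smpx were the 4 tested members not called, and Tpm1 was the 1 gene of 996 with several tested probe sets that had probe sets called in both directions. The lower count was 6 when EDL was reduced to replicates 3 and 4.

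Each of the 3 adult fast myosins was lower in EOM. Myh2, the 2A myosin, read 9695.1, 11397.8, 9341.3 and 7996.7 units in EOM, against 21638.9, 16184.5, 15551.3 and 13890.9 in EDL (log2 -0.80, SE 0.17, adjusted p = 0.00142). Myh1, the 2X myosin, read 124.4, 108.0, 78.3 and 162.7 in EOM, against 169.4, 538.1, 407.5 and 333.0 in EDL (log2 -1.54, SE 0.35, adjusted p = 0.00242). For both genes every EOM array was below every EDL array. Myh4 read 14679.9, 12938.4, 12635.3 and 17129.1 in EOM, against 21881.1, 17758.2, 17004.9 and 21947.0 in EDL, with EOM replicate 4 above EDL replicate 3. This small fall (log2 -0.45, SE 0.15, adjusted p = 0.0345) was no longer called without EOM replicate 1, 2 or 3 or EDL replicate 1 or 4 (adjusted p = 0.0589 to 0.106), nor after quantile normalization (adjusted p = 0.258).

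Slow fibre genes divided the EDL pools. Myh7, the slow myosin, read 9271.5, 9659.3, 8046.9 and 8332.6 units in EOM, against 14895.6, 32182.8, 30415.3 and 7818.1 in EDL. Myl3 (24585), the slow ventricular light chain, read 2344.6, 2534.5, 1905.7 and 2307.2 in EOM, against 7385.6, 22796.3, 21201.4 and 5347.0 in EDL. In both genes EDL replicates 2 and 3 stood well above EDL replicates 1 and 4, while the EOM arrays were nearly level. Myl3 was called (log2 -2.38, SE 0.37, adjusted p = 3.91e-05) and remained so with EDL reduced to replicates 1 and 4 (log2 -1.47, adjusted p = 0.00254). The fall of Myh7 (log2 -1.06, SE 0.34, adjusted p = 0.0316) was lost on leaving out EDL replicate 2 or 3 or any 1 of the 4 EOM arrays (adjusted p = 0.0521 to 0.136), and with EDL replicates 1 and 4 it was -0.29 (adjusted p = 0.644).

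The same pools led in 2 sarcomere proteins that answer to load. Csrp3 (117505), muscle LIM protein, read 435.8, 741.2, 530.5 and 412.3 units in EOM, against 2363.9, 4160.9, 9433.3 and 1071.3 in EDL (log2 -2.61, SE 0.47, adjusted p = 0.000259). Ankrd1 (27064), a stretch-responsive ankyrin protein of titin, read 186.4, 172.0, 121.9 and 164.9 in EOM, against 397.9, 823.5, 1853.4 and 296.1 in EDL (log2 -2.03, SE 0.40, adjusted p = 0.000658). Every EDL array exceeded every EOM array for both, including the lower pair of EDL pools, and with that pair alone the differences were -1.63 (adjusted p = 0.0159) and -1.11 (adjusted p = 0.0331). Of 13 tested genes of the slow and cardiac sarcomere 2 (15.4%) were higher (Actc1 and Tnnt2, cardiac troponin T) and 6 (46.2%) lower. All genes gave 12.3% and 6.46%, and the median of the list was -0.813. With EDL reduced to replicates 1 and 4 the counts and median of the list were 3, 4 and -0.376. The count of higher genes was 1 without EDL replicate 1 or 4 or without EOM replicate 1, 2 or 3. Whether EDL pools 2 and 3 held more slow muscle was not tested, and their levels move with each of these differences.

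**Figure D3:**
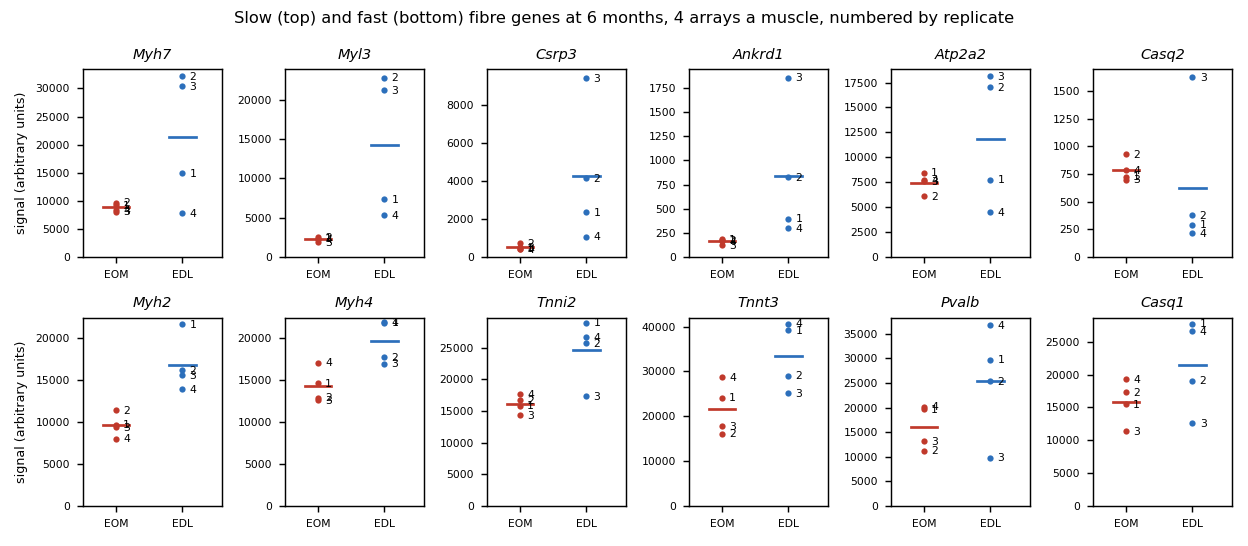
Signal (arbitrary units, linear axes from 0) of 6 slow fibre genes (top) and 6 fast fibre genes (bottom) on the 4 EOM arrays (red, left) and the 4 EDL arrays (blue, right), numbered by replicate with a bar at the mean. EDL replicates 2 and 3 are the highest points for Myh7, Myl3, Csrp3, Ankrd1 and Atp2a2, EDL replicate 3 for Casq2, and EDL replicate 3 the lowest EDL point for Myh4, Tnni2, Tnnt3, Pvalb and Casq1.

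Genes of calcium handling were called in both directions, and most were not called. Of 33 tested genes, 3 (9.09%) were higher in EOM and 5 (15.2%) lower, with a median of -0.303, against 12.3% and 6.46% of all genes. Pln, phospholamban, which restrains the slow and cardiac calcium pump, read 146.0, 358.4, 351.4 and 129.9 units in EOM, against 31.1, 5.6, 69.8 and 19.5 in EDL with 2 EDL arrays at the floor (log2 2.67, SE 0.41, adjusted p = 3.15e-05). Cacng1, the gamma subunit of the muscle calcium channel, was the firmest fall at 1015 ± 48.1 units in EOM and 3291 ± 530 in EDL (log2 -1.69, SE 0.15, adjusted p = 8.13e-09). Cacna1s, the pore of that channel, fell with it (log2 -0.88, SE 0.16, adjusted p = 0.000326), although its other probe set was not called. Of the 3 higher genes 1 was called after centring arrays on their medians. The lower count was 9 with the replicate block, and 3 without EDL replicate 2 or EOM replicate 2 or 4.

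Pumps and buffers of calcium overlapped between the muscles. Atp2a1, the fast calcium pump, averaged 22170 ± 4054 units in EOM and 28880 ± 6190 in EDL (log2 -0.38, SE 0.19, adjusted p = 0.189, with the replicate block 0.00691). Casq1, the fast calsequestrin, did not pass either (log2 -0.40, SE 0.22, adjusted p = 0.257, with the block 0.0403 and without EDL replicate 3 0.0357). For both, the 4 arrays of each muscle overlapped. Pvalb, the buffer of fast fibres, read 19669.8, 11237.5, 13156.5 and 20175.1 in EOM, against 29780.0, 25406.9, 9823.7 and 36818.0 in EDL. It was not called over all pools (log2 -0.56, SE 0.28, adjusted p = 0.199) and was called lower without EDL replicate 3 (log2 -0.96, adjusted p = 0.00216). Casq2, the cardiac calsequestrin, read 726.4, 929.2, 701.3 and 783.4 in EOM, against 293.6, 376.7, 1626.4 and 218.2 in EDL. EDL replicate 3 lay above all EOM arrays and the other 3 EDL pools below them, so the difference of 0.81 (SE 0.40, adjusted p = 0.181) became 1.43 (adjusted p = 0.000445) without that pool. Atp2a2, the slow pump, had a difference of -0.45 (SE 0.35, adjusted p = 0.425) that turned to 0.33 (adjusted p = 0.592) with EDL replicates 1 and 4.

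Of 21 tested genes of ion channels and pumps 2 (9.52%) were higher and 2 (9.52%) lower, against 12.3% and 6.46% of all genes. The counts were 4 and 4 with the block. Kcnma1, the large-conductance calcium-activated potassium channel, rose by log2 1.49 (SE 0.29, adjusted p = 0.000482). Kcnj12, an inward rectifier potassium channel, was lower (155.6 ± 26.2 units in EOM and 340.9 ± 33.3 in EDL, log2 -1.14, SE 0.24, adjusted p = 0.00142). The lower count was 1 without EDL replicate 4 or EOM replicate 1 or 2, and 4 with EDL replicates 1 and 4.

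Of 22 tested genes of the neuromuscular junction and of denervation, 10 (45.5%) were higher in EOM, 1 (4.55%) lower and 11 not called, with a median of 0.591, against 12.3% and 6.46% of all genes. The 4 receptor subunits of the adult muscle endplate rose: Chrna1 and Chrnd, the alpha and delta subunits, Chrne, the adult epsilon subunit, and Chrnb1, the beta subunit. Chrna1 (79557) read 1426.0, 2040.1, 1452.8 and 1569.1 units in EOM, against 331.5, 265.2, 1032.8 and 344.7 in EDL (log2 1.93, SE 0.30, adjusted p = 3.65e-05). Chrnd read 966.9, 994.3, 657.5 and 907.4 in EOM, against 151.1, 291.4, 564.1 and 126.9 in EDL (log2 1.88, SE 0.34, adjusted p = 0.00023). In both genes EDL replicate 3 was the highest EDL pool, and no EDL pool reached an EOM array.

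The epsilon and beta subunits were more even within EDL. Chrne read 1170.8, 1036.8, 814.4 and 1121.6 units in EOM, against 513.3, 368.3, 303.3 and 340.0 in EDL (log2 1.46, SE 0.25, adjusted p = 0.000112). Chrnb1 averaged 1088 ± 137 units in EOM and 570.2 ± 65.2 in EDL (log2 0.93, SE 0.15, adjusted p = 5.5e-05). Gadd45a (25112), a growth-arrest gene that denervated muscle induces, was 4.74-fold higher (log2 2.24, SE 0.26, adjusted p = 6.09e-07), with 1 of its 3 other probe sets called in that direction and the others not called. Prkar1a, a regulatory subunit of protein kinase A, also rose (log2 1.28, SE 0.17, adjusted p = 4.46e-06), as did the synaptic matrix proteins Agrn and Lamb2 at 0.66 and 0.52. Cav3, caveolin 3 of the muscle membrane, was the lower gene (log2 -0.55, adjusted p = 0.0433), a call that was lost without EDL replicate 1, 2 or 4 or EOM replicate 1, 2 or 3 (adjusted p = 0.0545 to 0.187).

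Among genes of myogenic regulation and growth control, 10 of 41 (24.4%) were higher in EOM and 0 lower, with a median of 0.23, against 12.3% and 6.46% of all genes. Id2, an inhibitor of helix-loop-helix factors, was 3.91-fold higher (531.6 ± 152 units in EOM and 134.2 ± 30.7 in EDL, log2 1.97, SE 0.35, adjusted p = 0.000177). Fst, follistatin, which binds myostatin and activins, rose by log2 1.93 (SE 0.45, adjusted p = 0.00353). Igf1, the growth factor, read 1003.4, 1340.4, 1432.2 and 668.7 in EOM, against 231.7, 364.9, 423.1 and 195.3 in EDL (log2 1.88, SE 0.32, adjusted p = 0.00011). Its 4 other probe sets were not called and 1 had the opposite sign, so the difference rests on 1 probe set. Mstn, myostatin, which limits muscle growth, was higher as well (243.4 ± 42 units in EOM and 114.2 ± 40 in EDL, log2 1.16, SE 0.31, adjusted p = 0.00989), though not without EDL replicate 2 (adjusted p = 0.053).

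The myogenic factors themselves did not pass. Myog, myogenin, read 308.3, 431.8, 342.6 and 306.0 units in EOM, against 71.7, 566.7, 953.6 and 94.3 in EDL. EDL replicates 2 and 3 lay above every EOM array and EDL replicates 1 and 4 below, and the difference was 0.48 (SE 0.63, adjusted p = 0.68), or 2.06 (adjusted p = 0.00926) with EDL replicates 1 and 4 alone. Myod1 had 609.8 ± 144 units in EOM and 940.6 ± 376 in EDL (log2 -0.58, SE 0.24, adjusted p = 0.106, with the replicate block 0.0292, and without EDL replicate 3 0.0369). When EDL was reduced to replicates 3 and 4, the higher count of the list was 4. The lower count was 2 with the block or with EDL replicates 1 and 4, and 1 without EDL replicate 2 or 3.

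The list of sugar and glycogen breakdown had 29 tested genes, 8 (27.6%) of them higher in EOM and 7 (24.1%) lower, with a median of -0.432, against 12.3% and 6.46% of all genes. Hk1 (25058), the hexokinase that predominates in brain and red cells, read 1383.7, 1725.9, 1311.9 and 1069.2 units in EOM, against 257.9, 271.9, 341.7 and 316.7 in EDL (log2 2.20, SE 0.19, adjusted p = 4.75e-09), with its other probe set not called. Aldoc, the brain aldolase, read 578.1, 730.2, 472.9 and 667.2 in EOM, against 90.5, 72.4, 173.7 and 154.3 in EDL (log2 2.39, SE 0.39, adjusted p = 8.58e-05). Aldoa, the muscle aldolase, overlapped (log2 -0.43, SE 0.23, adjusted p = 0.221, with the block 0.0122).

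Enolase and phosphoglycerate mutase had isozymes called in opposite directions. Eno1, the widely expressed enolase, averaged 9539 ± 707 units in EOM and 4554 ± 376 in EDL (log2 1.07, SE 0.11, adjusted p = 1.84e-07), whereas Eno3, the muscle enolase, averaged 8590 ± 2688 in EOM and 14920 ± 3842 in EDL (log2 -0.83, SE 0.21, adjusted p = 0.00709). Pgam1, the brain form of the mutase, was 2.04-fold higher (log2 1.03, SE 0.16, adjusted p = 6.02e-05), and Pgam2, the muscle form, fell by log2 0.86 (SE 0.18, adjusted p = 0.00112). In both pairs the form typical of muscle was the lower one in EOM. Hk2, the muscle hexokinase, was 1.73-fold higher, as Hk1 was (log2 0.79, SE 0.20, adjusted p = 0.00553). The Hk2 call was lost after centring arrays on their medians (adjusted p = 0.0587), and its other probe set was not called (log2 0.47). Ldhb, the heart form of lactate dehydrogenase, was 2.04-fold higher (adjusted p = 0.0357), a call lost without EDL replicate 1 or 4 or EOM replicate 1, 3 or 4 (adjusted p = 0.0543 to 0.179). Its other probe set was not called (log2 0.85).

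Transcripts of a glucose transporter and a lactate exporter were also called, while Slc2a3, Slc2a4 and Slc16a1, transporters of the same list, were not. Slc2a1, the basal glucose transporter, rose by log2 2.00 (SE 0.32, adjusted p = 5.44e-05), and Pygb, the brain glycogen phosphorylase, 2.89-fold higher (log2 1.53, SE 0.24, adjusted p = 3.88e-05). Slc16a3, the lactate exporter of fast fibres, read 1368.5, 974.6, 951.0 and 1027.1 units in EOM, against 5009.3, 4279.7, 1557.1 and 5865.9 in EDL (log2 -1.81, SE 0.25, adjusted p = 1.03e-05). EDL replicate 3 was the lowest EDL pool and still above every EOM array. The lower count of the list was 12 with the block, 11 with EDL replicates 1 and 4 and 4 with EDL replicates 3 and 4.

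Most genes of oxidative phosphorylation did not pass. Of 37 tested, 4 (10.8%) were higher in EOM and 0 lower (4 lower with the block, 1 without EDL replicate 2), with a median of -0.152. All genes gave 12.3% higher and 6.46% lower, so the higher share was close to theirs. The 4 were Slc25a5, an adenine nucleotide carrier found widely outside muscle (2932 ± 294 units in EOM and 920.1 ± 191 in EDL, log2 1.69, SE 0.16, adjusted p = 1.67e-08), Ucp2, an uncoupling protein (log2 1.17), and the cytochrome oxidase subunits Cox8a and Cox6a1 (1.11 and 0.93), which are the forms made outside muscle. Cox8b and Cox6a2, the muscle forms of these subunits, were tested and not called. The subunit Cox4i1 averaged 19300 units in EOM and 23010 in EDL (log2 -0.25, SE 0.20, adjusted p = 0.446).

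Of 43 genes of fatty acids, ketones and the TCA cycle, 10 (23.3%) were higher in EOM and 3 (6.98%) lower, with a median of 0.11, against 12.3% and 6.46% of all genes. The higher count was 7 without EDL replicate 1 or 2 or EOM replicate 2, or after centring arrays on their medians. Acsl5 (94340), which activates long-chain fatty acids, read 2457.8, 1765.7, 3106.3 and 2647.6 units in EOM, against 142.6, 157.7, 212.7 and 168.6 in EDL (log2 3.86, SE 0.33, adjusted p = 3.75e-09). Acsl6, of the same family, was lower (347 ± 26 units in EOM and 938.9 ± 348 in EDL, log2 -1.34, SE 0.25, adjusted p = 0.000313). Bdh1, the ketone body dehydrogenase, rose by log2 2.90 (SE 0.48, adjusted p = 8.05e-05). Ech1, of fatty acid oxidation, and Slc25a20, the carnitine carrier, rose by 1.08 and 1.12. The muscle carnitine palmitoyltransferase Cpt1b was lower (log2 -0.58, SE 0.13, adjusted p = 0.00157). The lower count was 6 with the block and 5 without EDL replicate 3.

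Among 11 enzymes of energy buffering and nucleotides, 1 (9.09%) was higher (2 after quantile normalization) and 2 (18.2%) lower, against 12.3% and 6.46% of all genes. Ak4 (29223), a mitochondrial adenylate kinase, read 666.4, 982.4, 817.5 and 500.4 units in EOM, against 7.7, 11.1, 22.5 and 8.2 in EDL. All 4 EDL arrays were at the floor, so it was at least 27.1-fold higher (adjusted p = 1.13e-12). Car3 (54232), the carbonic anhydrase of slow fibres, read 396.0, 287.9, 633.0 and 503.8 in EOM, against 4405.0, 4697.6, 11604.9 and 2152.5 in EDL (log2 -3.45, SE 0.56, adjusted p = 6.87e-05). Ampd1, the muscle AMP deaminase, averaged 2737 ± 87.9 in EOM and 6603 ± 1140 in EDL (log2 -1.26, SE 0.16, adjusted p = 3.87e-06). Ckm, the muscle creatine kinase, did not pass (log2 -0.44, SE 0.26, adjusted p = 0.278, with the block 0.00622). Ckb, the brain form, did not pass by its brightest probe set (log2 0.38, SE 0.27, adjusted p = 0.375), but its other probe set was called higher in EOM (log2 1.05).

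Of 41 detoxifying and antioxidant genes 14 (34.1%) were higher in EOM, 0 lower and 27 not called, with a median of 0.322, against 12.3% of all genes higher. Mgst1 (171341), a microsomal glutathione transferase, read 3489.5, 2436.8, 5088.4 and 4763.6 units in EOM, against 132.5, 261.9, 257.0 and 345.5 in EDL (log2 4.01, SE 0.33, adjusted p = 2.33e-09). Mt3, a metallothionein best known from brain, read 851.6, 1018.7, 465.1 and 720.2 in EOM, against 42.6, 162.7, 35.1 and 36.0 in EDL (log2 3.76, SE 0.45, adjusted p = 9.84e-07). The glutathione transferase Gstm2 and the extracellular superoxide dismutase Sod3 rose by 1.56 and 1.49. Sod1 (log2 0.26, adjusted p = 0.412) and catalase, Cat (log2 -0.53, adjusted p = 0.428), the main enzymes of the cytosol and the peroxisome, did not pass.

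Of 27 genes of the ubiquitin and proteasome system 0 were higher in EOM, 7 (25.9%) lower and 20 not called, with a median of -0.285, against 6.46% of all genes lower (4 lower without EDL replicate 2 or after centring arrays on their medians, 3 with EDL replicates 3 and 4). They included Trim63, a muscle ubiquitin ligase of the sarcomere (1173 ± 266 units in EOM and 2867 ± 1050 in EDL, log2 -1.25, SE 0.23, adjusted p = 0.00023, other probe set not called), and Ube2g1, a ubiquitin-conjugating enzyme (log2 -1.63, SE 0.30, adjusted p = 0.000293). Of 29 heat shock and folding genes 6 (20.7%) were higher and 3 (10.3%) lower, against 12.3% and 6.46% of all genes. Pdia3, an endoplasmic reticulum disulfide isomerase, was 2.76-fold higher (log2 1.46, SE 0.21, adjusted p = 1.18e-05). These counts were 3 and 1 without EOM replicate 2, 1 lower without EDL replicate 1 or EOM replicate 1 or 3, 5 lower with the block, 3 higher after quantile normalization, 1 higher after centring arrays on their medians, 1 lower with EDL replicates 3 and 4, and 3 and 1 with EDL replicates 1 and 4.

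Of 40 cytosolic ribosomal protein genes 0 were higher and 2 (5.0%) lower, a share below that of all genes, although 10 were lower with the replicate block. Rpl4 averaged 3607 ± 728 units in EOM and 5725 ± 758 in EDL (log2 -0.68, SE 0.19, adjusted p = 0.0148), which was lost without EOM replicate 2 (adjusted p = 0.0698). The count was 0 without that array, 1 without EOM replicate 3 and 4 without EOM replicate 4. Of 25 immediate early genes 2 (8%) were higher and 4 (16%) lower, against 12.3% and 6.46% of all genes. The lower count was 7 with the block and 2 without EDL or EOM replicate 2 or with EDL replicates 3 and 4. The higher count was 1 after centring. The transcription factor Klf4 was 2.30-fold higher (log2 1.20, SE 0.22, adjusted p = 0.000339) and Jun lower (log2 -1.05, SE 0.19, adjusted p = 0.000239), with the 3 other Jun probe sets not called. Fos (log2 -0.88, adjusted p = 0.0515) did not pass. Among 9 clock genes 1 (11.1%), the repressor Bhlhe40, was lower (log2 -1.01, adjusted p = 0.0154), not without EDL replicate 1 or 4 or EOM replicate 2 (adjusted p = 0.0521 to 0.0776).

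In the extracellular matrix 11 of 42 genes (26.2%) were higher in EOM and 2 (4.76%) lower, with a median of 0.305, against 12.3% and 6.46% of all genes. Gpc3, a glypican of the cell surface, averaged 422.9 ± 83.8 units in EOM and 57.08 ± 8.21 in EDL (log2 2.88, SE 0.32, adjusted p = 2.92e-07). Fbln5, of elastic fibres, was 3.63-fold higher (log2 1.86, SE 0.23, adjusted p = 1.76e-06). The fibrillar collagens Col1a1 (log2 -0.30, adjusted p = 0.677) and Col3a1 (0.29, adjusted p = 0.659) did not pass. Comp, a matrix protein of tendon and cartilage, was lower, at 36.0, 64.1, 27.7 and 46.2 units in EOM, against 266.6, 202.3, 85.6 and 413.6 in EDL (log2 -2.30, SE 0.44, adjusted p = 0.000443), and so was Thbs4, thrombospondin 4 (log2 -1.94, SE 0.48, adjusted p = 0.0055). The higher count was 5 without EOM replicate 2, 7 without EDL replicate 1 and 3 with EDL replicates 3 and 4, where the median was -0.032, and the lower count was 4 with the block or after centring.

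**Figure D4:**
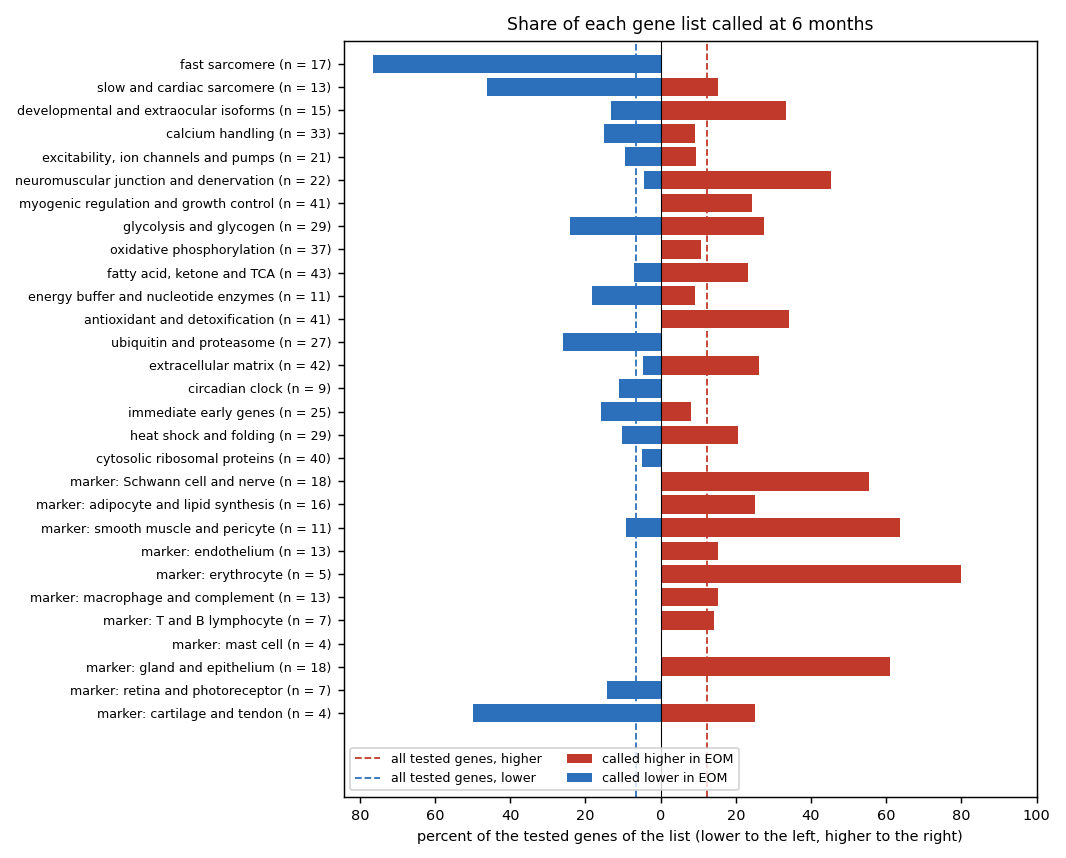
Share of each list's tested genes called higher in EOM (red, to the right) or lower (blue, to the left), in percent, with the number tested in brackets and dashed lines at the shares of all tested genes (12.3% higher, 6.46% lower). The fast sarcomere has the longest bar to the left at 76.5% of 17 genes, and the erythrocyte, smooth muscle, gland and Schwann cell markers the longest to the right.

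Markers of some other cell types differed between the muscles, and their part in the differences above was not tested. Of 18 Schwann cell and nerve markers 10 (55.6%) were higher in EOM and 0 lower, with a median of 1.203, against 12.3% and 6.46% of all genes. Their summed signal was 10705 to 13761 units in EOM and 4559 to 5657 in EDL. S100b, a glial calcium-binding protein, read 418.7, 480.5, 566.8 and 541.2 in EOM, against 32.5, 24.4, 35.8 and 88.0 in EDL (log2 3.63, SE 0.53, adjusted p = 1.83e-05). Sox10, which defines the Schwann lineage, was at the floor on all 4 EDL arrays and at least 6.50-fold higher in EOM (adjusted p = 8.01e-05). Mbp, of myelin, was at the floor on 3 of 4 EDL arrays (log2 3.28, SE 0.52, adjusted p = 5.23e-05), and Nefm, an axonal neurofilament, also on 3 (log2 2.41, SE 0.33, adjusted p = 7.7e-06).

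Gland and epithelial markers were higher as well, 11 of 18 (61.1%) with 0 lower and a median of 2.242, against 12.3% of all genes higher. Their summed signal was 21527 to 37622 units in EOM and 9110 to 12652 in EDL. Ctse (25424), the protease cathepsin E, read 2606.5, 2274.5, 4335.8 and 3378.5 in EOM, against 22.1, 36.3, 57.1 and 16.4 in EDL (log2 6.52, SE 0.37, adjusted p = 3.45e-12). Spt1 (29229), a secretory protein of the salivary gland, read 603.0, 823.2, 16578.7 and 5774.6 in EOM, against 15.5, 34.4, 22.6 and 11.9 in EDL, 3 of them at the floor (log2 6.52, SE 1.24, adjusted p = 0.000438). Its EOM pools differed from each other by more than an order of magnitude. Klk1 (24523), tissue kallikrein, read 2339.0, 3029.0, 2158.0 and 1870.2 in EOM, against 73.0, 407.2, 144.9 and 24.4 in EDL (log2 4.49, SE 0.64, adjusted p = 1.35e-05). The epithelial keratin Krt19 was at the floor on all EDL arrays and at least 7.76-fold higher (adjusted p = 1.71e-06), and Epcam, an epithelial adhesion molecule, rose by log2 2.82 (SE 0.47, adjusted p = 9.49e-05).

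Of 16 adipocyte and lipid synthesis markers 4 (25%) were higher in EOM, against 12.3% of all genes, and 0 lower (1 lower without EDL replicate 1), with a summed signal of 21209 to 28479 units in EOM and 14698 to 15781 in EDL. Those 4 were Fasn, fatty acid synthase (log2 3.57, SE 0.47, adjusted p = 4.51e-06), Acly, ATP citrate lyase (3.34, SE 0.27, adjusted p = 2.04e-09), Scd, a stearoyl-CoA desaturase (3.23, SE 0.39, adjusted p = 1.27e-06), and Cidea, a lipid droplet protein (2.94, SE 0.38, adjusted p = 3.11e-06). Acly averaged 7116 ± 1090 units in EOM and 707.8 ± 162 in EDL. Acaca (log2 0.67, adjusted p = 0.404), Gpam (-0.77, adjusted p = 0.214), Me1 (-0.31, adjusted p = 0.41) and Srebf1 (0.52, adjusted p = 0.287), also of fat synthesis, did not pass. The fat cell products Fabp4 (log2 0.22, adjusted p = 0.659), Lep (-0.30, adjusted p = 0.587) and Cfd (0.60, adjusted p = 0.295) did not pass either.

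The shares in this paragraph compare with 12.3% of all genes higher and 6.46% lower. Of 11 smooth muscle and pericyte markers 7 (63.6%) were higher and 1 (9.09%), Des, lower (2 lower with the block, after quantile normalization or without EOM replicate 2). The median of the list was 1.192, and the higher count was 4 with EDL replicates 3 and 4. Summed signals, which the brightest members dominate and which include Des, were 16942 to 26179 units in EOM and 21387 to 30444 in EDL. Cnn1, calponin of smooth muscle, was 2.95-fold higher (log2 1.56, SE 0.29, adjusted p = 0.000279). Of 5 erythrocyte markers 4 (80%) were higher (2 with EDL replicates 3 and 4), with sums of 10747 to 34444 units in EOM and 3383 to 6091 in EDL, led by the beta-globin Hbb-b1 (log2 1.91, SE 0.33, adjusted p = 0.00015). Of 13 endothelial markers 2 (15.4%) were higher (1 without EDL replicate 2 or EOM replicate 2 or 3, or after centring), with sums of 6526 to 8053 units in EOM and 3634 to 6252 in EDL. Pecam1 of the endothelium averaged 325.6 units in EOM and 306.8 in EDL (log2 0.24, adjusted p = 0.666).

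Immune, retinal and tendon lists had few tested genes. The shares higher were 15.4% for macrophage, 14.3% for lymphocyte and 25% for tendon markers, against 12.3% of all genes. The shares lower were 14.3% for retinal and 50% for tendon markers, against 6.46% of all genes. Of 13 macrophage and complement markers 2 were higher, C3 and Serping1 (1 without EDL replicate 1 or EOM replicate 2), with sums of 4254 to 6617 units in EOM and 2825 to 8536 in EDL. Complement C3 was at the floor on all EDL arrays and at least 6.22-fold higher (adjusted p = 6.58e-06). Of 7 lymphocyte markers 1 was higher, Cd5 (0 without EDL replicate 2), with sums of 826 to 1040 units in EOM and 581 to 1089 in EDL. Of 4 mast cell markers 0 were called, with sums of 644 to 939 units in EOM and 628 to 1056 in EDL. Of 7 retinal and lens markers 0 were higher and 1, the lens crystallin Crygd, lower (0 without EDL replicate 2, 3 or 4 or EOM replicate 2, 3 or 4), with sums of 628 to 868 units in EOM and 829 to 1248 in EDL, and Cryba1, Crybb1, Gnb3, Prph2, Rpe65 and Sag were too dim to test. Of 4 cartilage and tendon markers 1, Bglap, was higher (0 without EDL replicate 1) and 2 lower, Comp and Chad (1 without EDL replicate 1 or 4 or EOM replicate 3), with sums of 373 to 611 units in EOM and 252 to 3009 in EDL.

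The remaining genes among the 12 largest rises are given here. Tc2n (500707) read 1129.5, 1155.2, 2218.7 and 1218.2 units in EOM, against 27.1, 63.6, 29.8 and 25.3 in EDL (log2 5.28, SE 0.39, adjusted p = 3.81e-10). Ptgds (25526), prostaglandin D synthase, known from the meninges and eye fluids, read 1624.9, 1158.8, 2067.1 and 1499.1 in EOM, against 30.4, 55.6, 38.2 and 79.7 in EDL (log2 5.03, SE 0.40, adjusted p = 1.53e-09). Ndrg4 (64457), known from heart and brain, read 2274.7, 2151.9, 1733.8 and 2573.8 in EOM, against 104.7, 65.7, 135.1 and 155.8 in EDL (log2 4.30, SE 0.24, adjusted p = 3.45e-12). In all of these the lowest EOM array was more than 10-fold above the highest EDL array. Aldh3a2 (65183), a fatty aldehyde dehydrogenase, read 774.3, 601.6, 1138.3 and 1006.0 in EOM, against 49.3, 45.6, 40.9 and 32.4 in EDL (log2 4.36, SE 0.43, adjusted p = 4.08e-08). Of its other probe sets 1 was called in the same direction and 1 was not called, with the opposite sign. Pnpla3 (362972), a lipase of lipid droplets, read 424.4, 317.9, 707.5 and 536.1 in EOM, against 6.8 to 17.2 in EDL. Every EDL value was below the floor, which makes the rise at least 17.9-fold (adjusted p = 1.19e-09). Tc2n, Ptgds, Aldh3a2, Pnpla3, Acsl5 and Mgst1 were highest in EOM replicate 3, as was the gland marker Ctse. Ndrg4 was lowest there, and the gland marker Klk1 was highest in EOM replicate 2. Tc2n, Ptgds, Aldh3a2, Pnpla3 and Ctse had their lowest EOM mean at 18 months, and Ndrg4 its highest. For Tc2n the means at 6, 18 and 30 months were 1430, 393.2 and 1135 units, and for Ctse 3149, 1035 and 2262. Whether these genes share a source was not tested.

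Among the largest falls, Abcb4 (24891), a phospholipid transporter known from the bile canaliculus, read 27.9, 23.8, 26.3 and 30.1 units in EOM, 2 of them at the floor, against 338.8, 262.2, 381.5 and 399.3 in EDL (log2 -3.61, SE 0.44, adjusted p = 1.35e-06). Ppp1r1a (58977), an inhibitor of protein phosphatase 1, read 1055.9, 755.2, 951.3 and 1011.3 in EOM, against 6344.6, 7324.4, 4249.6 and 4622.0 in EDL (log2 -2.55, SE 0.21, adjusted p = 3.2e-09). Aldh1l1 (64392), a folate enzyme, read 241.0, 212.8, 267.8 and 255.1 in EOM, against 1570.0, 2055.5, 949.0 and 1048.0 in EDL (log2 -2.46, SE 0.23, adjusted p = 1.46e-08). These 3 genes were not raised in EDL replicates 2 and 3 the way the slow fibre genes were. Dhrs7c (287411), a dehydrogenase of the sarcoplasmic reticulum, read 290.6, 411.1, 271.9 and 274.4 in EOM, against 1912.3, 1537.1, 1025.9 and 1459.9 in EDL (log2 -2.24, SE 0.21, adjusted p = 2.44e-08).

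A pair of dim genes and an enzyme of sterol synthesis complete the falls. Vtcn1 (295322), of the B7 family of immune regulators, read 24.8, 16.7, 41.2 and 27.7 units in EOM, against 158.1, 237.3, 345.0 and 91.5 in EDL, with 1 EOM array at the floor (log2 -2.69, SE 0.37, adjusted p = 7.7e-06). Amhr2 (29530), the receptor of anti-Müllerian hormone, read 14.3, 32.3, 13.2 and 7.4 in EOM, 3 of them at the floor, against 275.1, 375.1, 63.1 and 126.4 in EDL (log2 -2.61, SE 0.45, adjusted p = 0.000141). Both were dim in EOM, and every EDL array lay above every EOM array. Fdft1 (29580), squalene synthase, read 261.8, 73.9, 213.3 and 177.9 in EOM, against 681.4, 599.7, 845.7 and 802.4 in EDL (log2 -2.14, SE 0.44, adjusted p = 0.000978), and its 3 other probe sets were called in the same direction.

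The difference at 6 months was then read on the 16 arrays of the older rats. The sign and size of a difference at each age rest on the arrays of that age alone. The calls do not, because all ages were fitted together with a common spread for each probe set and a common filter. Counts of probe sets called at several ages are therefore not independent repeats. Of the 668 probe sets called higher at 6 months, 656 had the same sign at 18 months and 640 at 30 months, and 415 were called higher at both. Of the 361 called lower, 354 and 353 kept their sign and 202 were called lower at both. In all 98.2% of the called probe sets kept their sign at 18 months and 96.5% at 30 months, against 78.7% and 76.6% of all probe sets tested. Their median size was 1.17 at 6 months, 1.11 at 18 and 0.98 at 30 months. At 18 months 23.4% of probe sets were called, and at 30 months 19.2%. At neither later age were 88 of the higher and 70 of the lower probe sets called.

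**Figure D5:**
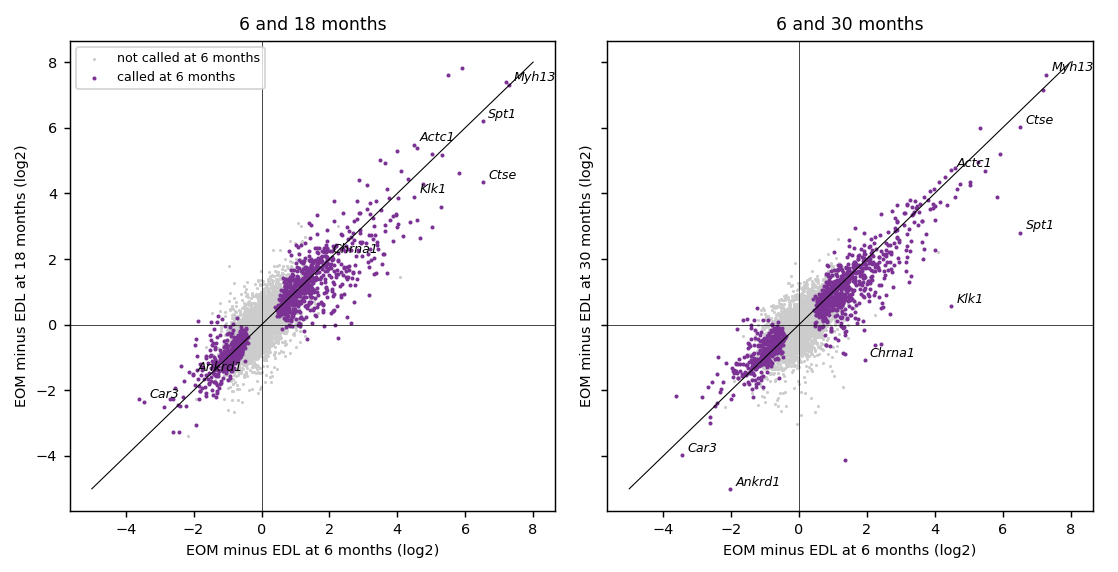
EOM minus EDL at 18 months (left) and at 30 months (right) against the same difference at 6 months (log2), 1 point per tested probe set, called at 6 months in purple, with the line of equality. Myh13 lies close to the line at both ages, while at 30 months Klk1 and Spt1 fall below it, Chrna1 lies under 0 and Ankrd1 is further below 0 than at 6 months.

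A test of whether the 6-month difference departed from the mean of the 2 later ones called 0 of 5741 probe sets (0%) in limma, with 243 at an unadjusted p under 0.05 and a smallest adjusted p of 0.195. Without EDL replicate 3 of 6 months it called 2, Chrna1 (1.87, SE 0.26, adjusted p = 0.00191) and Gadd45a (1.69, SE 0.30, adjusted p = 0.0326). Both were higher in EOM at 6 and 18 months. At 30 months Chrna1 averaged 1771 ± 197 units in EOM and 3932 ± 1447 in EDL (log2 -1.08, adjusted p = 0.011), so its call was opposite there. Gadd45a averaged 1847 ± 308 units in EOM and 3012 ± 1178 in EDL at 30 months and was not called (log2 -0.63). Of the 668 probe sets higher at 6 months, 4 were called lower at 30 months, Chrna1, Ctsl, a lysosomal protease, and 2 with no gene name, and 0 at 18 months, while 0 of the 361 lower ones were called higher at either age.

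Myh13, Myh8, Myh3 and Myh2 were called at all 3 ages, while Myh4, Myh7 and 2 gland products were not. Myh13 differed by log2 7.28, 7.31 and 7.62 at 6, 18 and 30 months, and Myh8 by 7.20, 7.40 and 7.15. Myh3 differed by 3.626, 4.912 and 3.146, and Myh2 by -0.799, -0.913 and -0.595. Klk1 differed by 4.49, 3.90 and 0.56 and was not called at 30 months (adjusted p = 0.611), when it averaged 4748 ± 1347 units in EOM and 3509 ± 2174 in EDL. Spt1 differed by 6.52, 6.20 and 2.80, the last not called (adjusted p = 0.123). Myh4 differed by -0.45, -0.32 and -0.24 and was called only at 6 months of the 3 ages (adjusted p = 0.133 at 18 and 0.294 at 30 months). The slow myosin Myh7 differed by -1.06, -0.03 and 0.15 and was called at 6 months, where EDL replicates 2 and 3 were high, and at neither later age (adjusted p = 0.964 and 0.815). None of these changes with age passed the test of the 6-month difference against the later ages. That test averages 18 and 30 months, so it dilutes a change seen at 30 months alone, as in Klk1 and Spt1, and cannot decide on one.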

How the data were processed

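The arrays were Affymetrix Rat Genome U34, 24 in all. The authors computed the deposited intensities, linear and with a single value for a probe set on an array, in Microarray Suite 5.0 (MAS5), per the submitters' processing notes and the design text. The labels name a pair of dyes and the design text a biotin stain. With 1 value per probe set, the arrays were treated as 1-colour. Detection calls were not used here.

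Controls (59 probe sets) were removed. Of the rest, 7006 had 1 gene symbol, 308 several and 1426 none, and only the first were named. Values under the 25th percentile of an array were set to it before log2. Testing required a signal over the array's own 40th percentile (55.4 to 83.8 units at 6 months) on at least 3 of 4 arrays in any of the 6 groups. Of the 5741 tested, 416 passed at 6 months in EOM alone, 336 in EDL alone and 340 through other ages alone, so a count of calls includes genes that had to differ to pass. The fit used limma 3.58.1 in R 4.3.3, with a mean for each of 6 groups and the 24 arrays together (lmFit, eBayes with trend, 18 residual degrees of freedom), giving 1 spread per probe set to both muscles, although the median SD between pools was 0.329 in EOM and 0.415 in EDL (log2). P-values were two-sided and Benjamini-Hochberg adjusted over all probe sets tested. The code was tested on simulated data.

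Named genes were the 12 largest rises and falls among called genes without overlap and with a brighter mean above the median of all values (112.3 units), up to 4 called members per list and direction, and a fixed set of muscle isoforms. Other list members given were chosen after their values were seen. Members and lists were chosen with earlier results of these data known. Lists got counts and medians and no test. Residuals of same-numbered EOM and EDL arrays had correlations of 0.13, 0.19, 0.34 and 0.17, all above 0.1, so the replicate number was also fitted as a block. The highest correlations with a different number were 0.16, 0.06, 0.15 and 0.09, so replicate 1 matched number 2 better than its own. Alternatives covered normalization, floor, filter, variance model, block and replicates. The number of arrays limits the precision.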

Additional observations from a re-analysis of the deposited data

Results flagged for a closer look

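In 5 of 114 groups of 4 arrays examined, 1 array stood apart from the other 3, with the gap to its nearest neighbour divided by the range of the group above Dixon's critical value for 4 samples. Chance gives about 1 in 20. Tc2n had 2218.7 units in EOM replicate 3 against 1129.5 to 1218.2 in the other EOM arrays (0.919), and 63.6 units in EDL replicate 2 against 25.3 to 29.8 in the other EDL arrays (0.883). Dhrs7c had 411.1 units in EOM replicate 2 against 271.9 to 290.6 (0.866). Casq2 had 1626.4 units in EDL replicate 3 against 218.2 to 376.7 (0.887). Chrna1 had 1032.8 units in EDL replicate 3 against 265.2 to 344.7 (0.896). Tc2n, Dhrs7c and Chrna1 were called with each of these arrays left out, and Casq2 was called without EDL replicate 3.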

How the results depend on the processing

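The 1029 calls became 823 to 1076 with any 1 of the 8 arrays left out. They were 445 within replicates 3 and 4 (307 higher, 138 lower), where 2 arrays stand for each group. The rule modelled on the design text, without its detection calls or probe-level difference calls, gave 565 (9.84%, with 434 higher and 131 lower). It asked for all 16 pairwise comparisons in 1 direction and a ratio of means over 2, and 526 of the 565 were among the 1029. Quantile normalization gave 1018 (584 higher, 434 lower), arrays centred on their medians 860, the 8 arrays alone 756 (541 and 215), and the replicate block 1446. The test of the 6-month difference against later ages called 0 to 2 with 1 array left out. Of 139 named genes called, 62 were called under all alternatives run (at most 26 a gene), 77 lost the call under at least 1, and 0 reversed. Of 13 not called, 9 were called under at least 1. The replicate block over 24 arrays added calls for Acta1, Atp2a1, Casq1, Aldoa, Ckm and Myod1 and took no named gene's call away. Over the 8 arrays alone the block gave 1018 calls (670 and 348), added those for Acta1 and Ckm, and lost 15 named calls, among them Myh7, Myh6, Fst, Fbp2, Cav3 and Ldhb, and the 8 arrays without it lost 28. Reversals occurred among uncalled genes. Chrng was -0.05 after quantile normalization, -0.09 within replicates 3 and 4, -0.31 with EDL replicates 3 and 4 and -0.08 to 0.27 with 1 array left out. Igf2 was -0.02 after quantile normalization, -0.01 after centring, -0.04 within replicates 1 and 2 and 0 to 0.16 with 1 array left out. Myog was -0.11 to 1.14 with 1 array left out, and Atp2a2 0.33 with EDL replicates 1 and 4, a setting chosen after seeing the data, as was leaving out arrays from list counts. The cause was not tested. Signals near the floor limit what could be measured of dim genes.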
